A study of Mus musculus with 9 samples.

Results

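The genes described here mark the crypt base of the colon or are targets of Wnt signalling there: Lgr5, Ascl2, Smoc2, Axin2, Rnf43, Znrf3, Sox9, Myc, Ccnd1 and Ephb2. They were listed by name, and each was read from the probeset annotated to it, the one with the highest mean where a gene has several. A probeset was found for 9 of the 10, with 1 probeset each, and all 9 were among the 14953 genes tested of 19938 named. Ephb2, a receptor that keeps progenitor cells in place along the crypt, is not analysed here. Expression was measured on 9 arrays in scrapings of the colon epithelium of male C57BL/6J mice aged 9 to 11 weeks, with the RNA of 4 mice pooled on each array (3 mice for the control pool of day 2). The heme groups ate a high-fat diet (40% of energy as fat) with 0.2 µmol heme, the iron pigment of red meat, per g for 2, 4, 7 or 14 days. The control groups ate that high-fat diet without heme and were sampled on days 0, 2, 4, 7 and 14, after 1 week on the control diet that all mice shared. Each diet and day has 1 pool, so 4 heme pools stand against 5 control pools, and the pools of different days serve as the replicates of a diet. A p-value here reflects variation among pools taken on different days, and says nothing of variation among single animals. By its title, the study asked which effects of heme in the colon are immediate and which are delayed.

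Stem cells at the bottom of each colon crypt divide throughout life and renew the epithelium, and Wnt signals from nearby cells keep them dividing. Wnt ligands bind Frizzled and Lrp receptors, beta-catenin is then stabilised, and together with TCF and LEF factors it switches on target genes. R-spondins bind Lgr receptors and so protect the Wnt receptors from Rnf43 and Znrf3, membrane ubiquitin ligases that are Wnt targets themselves and act as a brake on the pathway.

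Of the 10 genes, 4 were matched by symbol in the RefSeq promoter table (build GRCm38.p6). The 250 bases before the start are shown for the measured ones, Rnf43 with a pair of starts, Axin2 and Ascl2, to set the DNA next to these Wnt targets beside their levels. Sequences run 5′ to 3′ on the strand of the gene, and capitals mark CANNTG, the E-box bound by basic helix-loop-helix proteins such as Ascl2.
Rnf43, upstream start (chr11:87662837-87663086, plus strand): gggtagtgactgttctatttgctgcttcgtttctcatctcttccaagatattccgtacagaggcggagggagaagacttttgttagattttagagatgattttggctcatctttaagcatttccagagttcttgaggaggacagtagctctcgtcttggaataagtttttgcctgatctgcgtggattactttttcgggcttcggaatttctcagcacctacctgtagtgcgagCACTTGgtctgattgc
Rnf43, downstream start (chr11:87699647-87699896, plus strand): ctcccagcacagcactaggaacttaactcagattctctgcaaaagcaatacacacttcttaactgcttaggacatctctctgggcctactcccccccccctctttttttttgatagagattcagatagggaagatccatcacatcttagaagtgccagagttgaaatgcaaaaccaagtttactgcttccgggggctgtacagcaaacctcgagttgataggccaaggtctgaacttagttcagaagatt
Axin2 (chr11:108920099-108920348, plus strand): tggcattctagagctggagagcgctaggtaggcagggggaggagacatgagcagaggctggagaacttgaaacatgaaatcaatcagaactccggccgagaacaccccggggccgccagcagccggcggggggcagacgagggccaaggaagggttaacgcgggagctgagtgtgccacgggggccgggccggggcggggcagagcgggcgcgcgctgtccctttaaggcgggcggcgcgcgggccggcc
Ascl2 (chr7:142969265-142969514, minus strand): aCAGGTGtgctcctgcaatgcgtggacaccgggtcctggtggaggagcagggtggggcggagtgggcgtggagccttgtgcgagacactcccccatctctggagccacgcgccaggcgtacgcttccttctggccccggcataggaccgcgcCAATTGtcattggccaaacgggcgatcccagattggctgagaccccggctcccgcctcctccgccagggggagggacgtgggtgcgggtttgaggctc
An E-box stood at 2 places before Ascl2 and at 1 place before the upstream start of Rnf43. Of all 32851 promoter windows of this length, 66.2% hold at least 1. The letters CTTTG, a core of the TCF and LEF motif searched on both strands, were in 0 of these 4 windows and in 48.6% of all windows. The share of G and C was 44.4% and 45.2% before the starts of Rnf43, 69.2% before Axin2 and 67.6% before Ascl2.

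The scrapings carried the markers of epithelium: 8 of 8 passed the filter, with a mean level of 11.76 to 11.79 log2 in heme pools and 11.72 to 11.82 log2 in control pools. Markers of other cells varied from pool to pool. The mean of 10 smooth muscle markers ranged from 6.89 to 8.37 log2 in heme pools and from 6.96 to 8.92 log2 in control pools, and that of 10 fibroblast markers from 7.31 to 8.24 and from 7.40 to 8.55. The mean of pancreas acinar genes was 9.22 log2 in the heme pool and 8.59 log2 in the control pool of day 2, and between 4.98 and 5.19 log2 in the other 7 pools. Macrophage markers ranged from 6.30 to 6.92 log2 in heme pools and from 6.48 to 7.14 log2 in control pools, and endothelial, B cell and T cell markers lay between 5.45 and 6.64 log2 in every pool. In bulk samples such as these, fewer cells of a type and less RNA per cell cannot be told apart.

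The 3 stem cell markers differed between diets by less than 0.1 log2 on average, and none passed the test. Lgr5, the R-spondin receptor that marks cycling crypt stem cells, measured 7.21, 7.10, 6.95 and 6.97 log2 in the heme pools of days 2, 4, 7 and 14, and 7.21, 7.19, 7.10, 7.10 and 7.09 log2 in the control pools of days 0, 2, 4, 7 and 14. The heme pools of days 7 and 14 lay below all control pools, and those of days 2 and 4 lay among them. Ascl2, the transcription factor that maintains stem cell identity, measured 6.63, 6.58, 6.47 and 6.37 log2 in heme pools and 6.58, 6.42, 6.57, 6.65 and 6.48 log2 in control pools, and the groups overlapped. Smoc2, a secreted matrix protein enriched in the stem cell signature, measured 7.00, 7.03, 7.04 and 7.16 log2 in heme pools and 6.96, 7.03, 6.96, 7.03 and 7.14 log2 in control pools. Its highest values came from the day 14 pools of both diets. Over all pools the difference of heme minus control was -0.08 log2 for Lgr5 (95% interval -0.21 to 0.05), -0.03 for Ascl2 (-0.18 to 0.12) and 0.04 for Smoc2 (-0.08 to 0.15).

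Among the feedback inhibitors of the pathway, Axin2 had its heme pools below its control pools, and Rnf43 had its widest gap between diets on day 14. Axin2, a scaffold of the complex that degrades beta-catenin, measured 7.24, 7.15, 7.19 and 7.20 log2 in heme pools and 7.48, 7.29, 7.25, 7.34 and 7.25 log2 in control pools. All 4 heme pools lay below all 5 control pools, as did those of 2.33% of all genes tested. Rnf43 measured 8.16, 7.97, 7.72 and 7.45 log2 in heme pools, and 8.11, 8.09, 7.95, 7.95 and 7.84 log2 in control pools. The heme pool of day 2 was the highest of the 9, and those of days 7 and 14 were the lowest. Znrf3, the partner ligase of Rnf43, measured 6.67, 6.70, 6.69 and 6.40 log2 in heme pools and 6.81, 6.63, 6.70, 6.69 and 6.56 log2 in control pools, and 1 heme pool, that of day 14, lay below all others. Heme minus control over all pools was -0.13 log2 for Axin2 (95% interval -0.24 to -0.01), -0.16 for Rnf43 (-0.44 to 0.12) and -0.06 for Znrf3 (-0.22 to 0.10).

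Of the growth-related targets, Sox9 had the largest mean difference between diets and Ccnd1 the smallest. Sox9, a transcription factor of crypt progenitors, measured 8.43, 8.51, 8.37 and 8.16 log2 in heme pools and 8.67, 8.66, 8.51, 8.62 and 8.51 log2 in control pools. The heme pools of days 2, 7 and 14 lay below all control pools, and that of day 4 had the same value as the control pools of days 4 and 14. Myc, the growth regulator, measured 8.68, 8.70, 8.28 and 8.25 log2 in heme pools and 8.50, 8.67, 8.47, 8.59 and 8.46 log2 in control pools. Its heme pools held both the 2 highest and the 2 lowest values, the high ones from days 2 and 4 and the low ones from days 7 and 14. Ccnd1, which encodes the G1 cyclin D1, measured 8.81, 8.96, 8.86 and 8.91 log2 in heme pools and 8.85, 8.88, 8.82, 8.69 and 9.11 log2 in control pools. Heme minus control over all pools was -0.22 log2 for Sox9 (95% interval -0.37 to -0.07), -0.06 for Myc (-0.28 to 0.16) and 0.02 for Ccnd1 (-0.14 to 0.18).

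**Figure D1:**
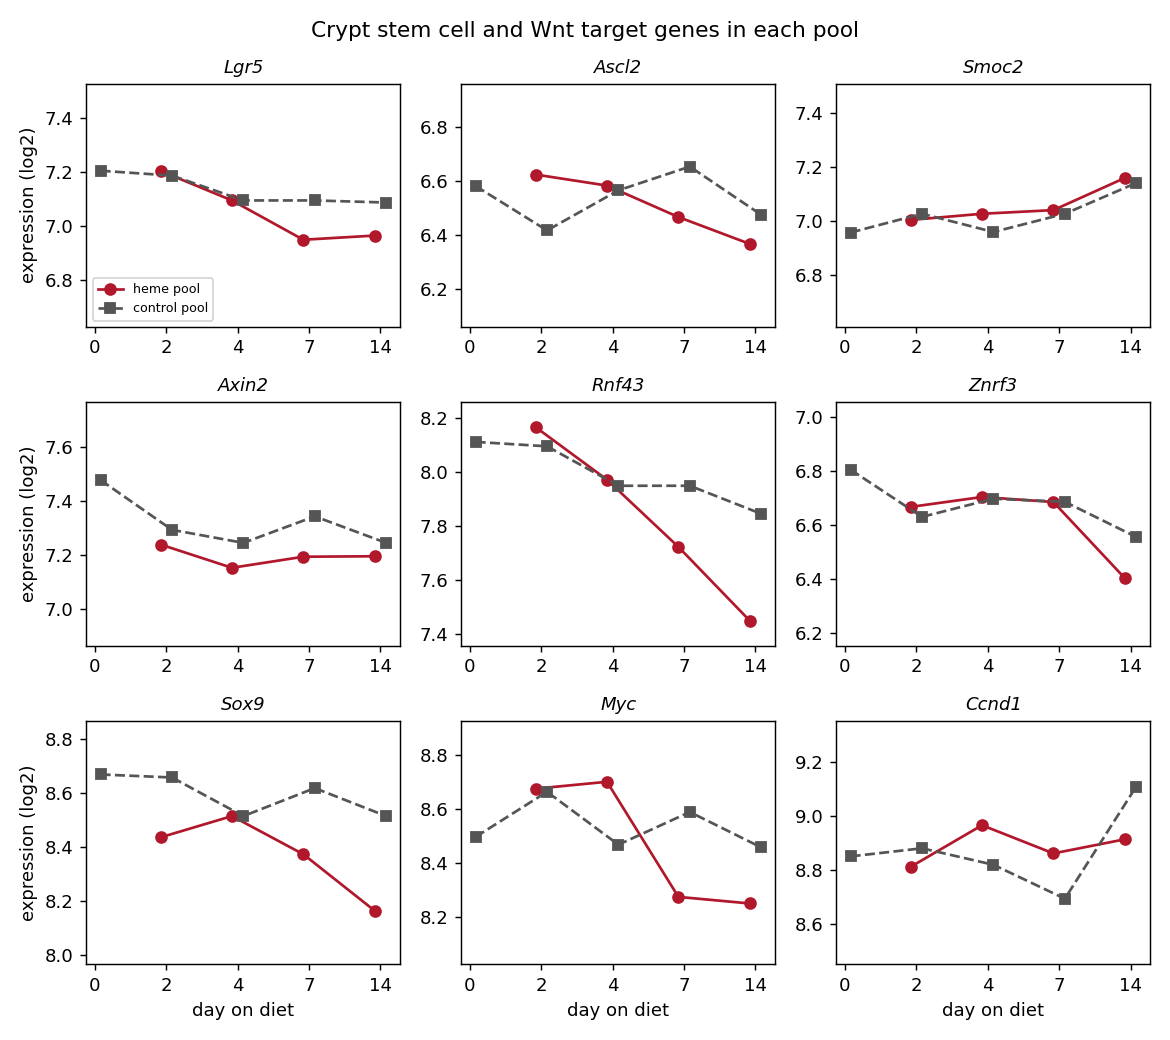
Expression (log2) of the 9 measured genes against day on diet, 1 panel a gene, with heme pools as red circles and control pools as grey squares; each point is 1 pool, so there are no error bars, and each panel spans the same height. Rnf43 in heme pools ends at 7.45 on day 14, below 7.84 in the control pool of that day, and the Axin2 heme pools all lie below the control pools.

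Across the 4 heme and 5 control pools, 0 of the 9 genes passed limma's test with Benjamini-Hochberg adjustment over all genes, against 0.595% of all genes called higher and 0.0736% called lower. At an unadjusted p under 0.05, 2 of the 9 were lower on heme, beside 8.65% of all genes. They were Sox9, which averaged 8.37 ± 0.15 log2 in heme pools (SD, n = 4) and 8.59 ± 0.075 log2 in control pools (SD, n = 5), and Axin2, which averaged 7.20 ± 0.035 and 7.32 ± 0.097 log2. Their adjusted p-values from limma were 0.187 and 0.278. A two-sided exact permutation test of the pools gave p = 0.0238 for Sox9 and p = 0.0317 for Axin2, and between 0.294 and 0.833 for the other 7 genes; 0.00794 is the smallest p it can give, and 9 genes were tested this way. Without the heme pool of day 14 the difference of Sox9 was -0.15 (limma adjusted p = 0.327) and that of Rnf43 was -0.04 (limma adjusted p = 0.907). That of Axin2 ran from -0.14 to -0.086 with 1 pool left out, the latter without the control pool of day 0.

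Below-control values were more frequent on the later days. On days 2 and 4, heme was lower than the control pool of its own day for 4 and 1 of the 9 genes. On days 7 and 14 it was lower for 7 and 8 of them. On day 4, 6 genes were higher, and Lgr5 and Sox9 had the same value in both pools. The shares of all genes tested that were lower were 47.2%, 40.9%, 51.6% and 52.3% on those 4 days. The median same-day difference of the 9 genes was 0.012, 0.018, -0.15 and -0.15 log2. These single pairs of pools have no replicate and no test, so each heme pool was also set against all 5 control pools, with its spread assumed to equal theirs.

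On day 2, 0 of the 9 genes passed limma's test, and 0 of them had an unadjusted p under 0.05. Over all genes 0% were called on day 2, with 1385 at an unadjusted p under 0.05, and likewise 0% on day 4, with 1051. The fold changes of the 9 genes ran from -0.16 (Sox9, limma adjusted p = 0.585) to 0.18 log2 (Rnf43, limma adjusted p = 0.704) on day 2. On day 4 they ran from -0.17 (Axin2, limma adjusted p = 0.897) to 0.17 log2 (Myc, limma adjusted p = 0.841), and 0 of the 9 had an unadjusted p under 0.05. The 95% interval of Rnf43 on day 2 ran from -0.08 to 0.43 log2.

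On day 7, 0 of the 9 genes passed the adjusted test, beside 0.876% of all genes called higher and 0.762% called lower. At an unadjusted p under 0.05, 4 of the 9 were lower, beside 9.91% of all genes. These were Lgr5 at -0.18 log2, Myc at -0.26, Rnf43 at -0.27 and Sox9 at -0.22, with limma adjusted p-values of 0.229, 0.192, 0.273 and 0.202. Axin2 was at -0.13 log2 (limma adjusted p = 0.648), Ascl2 at -0.07, Smoc2 at 0.02, Znrf3 at 0.01 and Ccnd1 at -0.01 log2, the last with a 95% interval of -0.34 to 0.32. Smooth muscle markers stood at 8.37 log2 in the heme pool and 8.92 log2 in the control pool of that day, the highest of each diet, and their part in these differences was not tested.

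On day 14, 2 of the 9 genes passed the test, both lower on heme. Rnf43 was 1.45-fold lower, with a log2 difference of -0.54 (SE 0.105, 95% interval -0.79 to -0.29, limma adjusted p = 0.0163). Sox9 was 1.35-fold lower, with a log2 difference of -0.43 (SE 0.074, 95% interval -0.61 to -0.25, limma adjusted p = 0.012). Both calls held when any 1 of the control pools was left out, with limma adjusted p-values between 0.0217 and 0.0411 for Rnf43 and between 0.022 and 0.0345 for Sox9. Leaving out control pools does not test the spread of the lone heme pool, which was assumed to equal that of the control pools. Against the control pool of day 14 alone the differences were -0.40 log2 for Rnf43 and -0.35 log2 for Sox9. Of all genes tested, 11.3% were called higher and 15.8% lower on that day, and 5 of the 9 genes were lower at an unadjusted p under 0.05 beside 22.4% of all genes.

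The other 7 genes did not pass on day 14. Myc, at -0.28 log2, came closest with a limma adjusted p of 0.0519, and Znrf3, at -0.27 log2, had 0.0759. Lgr5 and Ascl2 were each at -0.17 log2, with limma adjusted p-values of 0.105 and 0.226, and Axin2 was at -0.13 log2 with 0.374. Smoc2 at 0.14 log2 (0.241) and Ccnd1 at 0.04 log2 (0.878) pointed the other way. The share of genes called varied with their level. Among the 6569 genes whose mean lies in the range of the 9 genes, 6.26% were called higher and 22.4% lower, with a median of -0.06 log2. The count of 2 called lower among the 9 lies near that last share. Among the 4984 dimmer genes below the median gene mean 17.2% were called higher and 3.47% lower. Of all calls on that day 41.7% were higher, and 27.5% among the genes at or above the median.

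**Figure D2:**
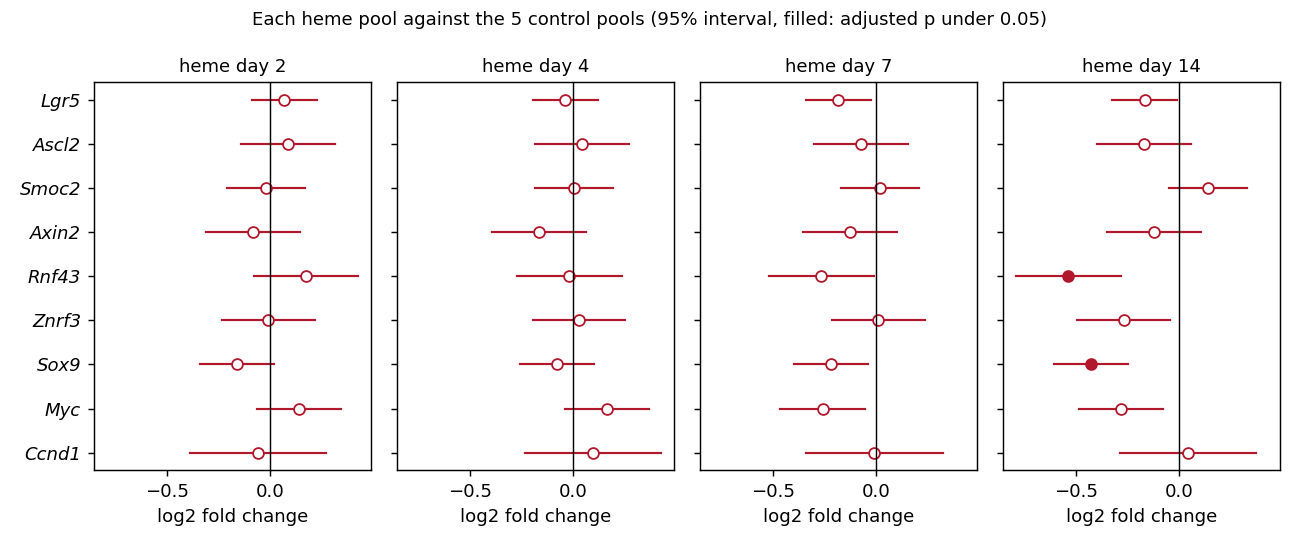
Log2 fold change of each heme pool against the 5 control pools for the 9 genes (points) with 95% intervals (lines), 1 panel a day; filled points passed at an adjusted p under 0.05. The filled points are Rnf43 at -0.54 and Sox9 at -0.43, both on day 14.

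**Figure D3:**
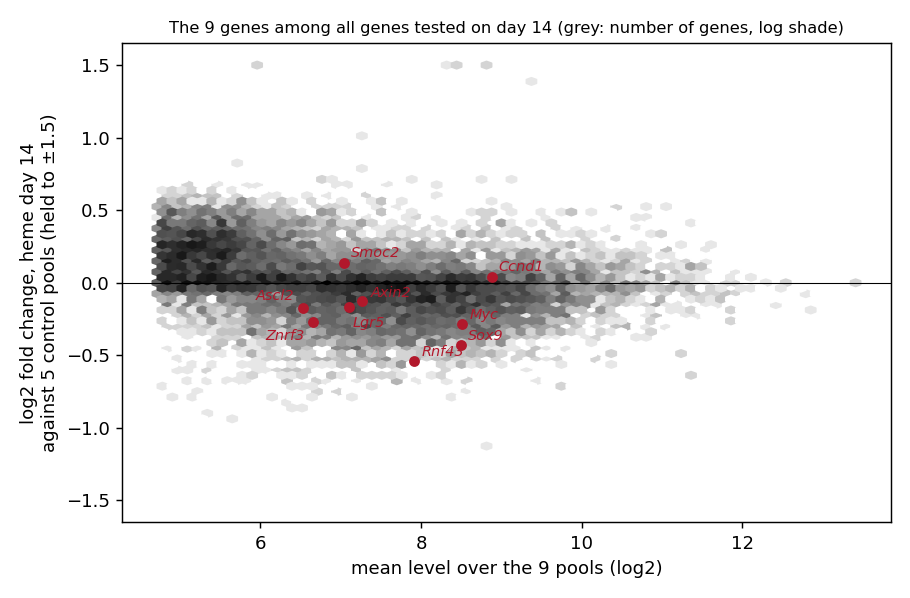
Log2 fold change of the heme pool of day 14 against the 5 control pools (y axis, held to ±1.5) against mean level over the 9 pools (x axis, log2) for all 14953 genes tested (grey, shaded by number of genes on a log scale) and the 9 genes (red). Rnf43 and Sox9 lie lowest of the 9, and Smoc2 lies highest at 0.14.

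The timing was tested directly as the heme minus control difference of days 7 and 14 less that of days 2 and 4. It was below 0 for 9 of the 9 genes, as for 57.8% of all genes. The differences of Smoc2 (-0.006 log2, SE 0.105) and Axin2 (-0.026 log2, SE 0.094) were no lower than the median of all genes, -0.028 log2. That of Ccnd1 was -0.053 log2 (SE 0.174). The widest shifts were those of Myc (-0.38 log2, SE 0.107, limma adjusted p = 0.62), Rnf43 (-0.36 log2, limma adjusted p = 0.749) and Ascl2 (-0.26 log2, limma adjusted p = 0.774). In limma's test 0% of all genes passed and 990 had an unadjusted p under 0.05, and of the 9 genes only Myc did. A difference between the later and the earlier days was therefore not shown for any of the 9 genes.

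On the control diet alone, 7 of the 9 genes had a slope below 0 over time, as did 49.4% of all genes. The slope of Rnf43 was -0.07 log2 for each unit of log2(day + 1) over the 5 control pools (SE 0.017, limma adjusted p = 0.677), that of Axin2 and Znrf3 was -0.05 each and that of Lgr5 was -0.03. In that fit 0% of all genes passed and 1073 had an unadjusted p under 0.05, Rnf43 among them. The heme slope of Rnf43 less its control slope was -0.22 log2 per unit over days 2 to 14 (SE 0.042, limma adjusted p = 0.19). That comparison, chosen after the values were seen, called 0% of all genes, with 1697 at an unadjusted p under 0.05.

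Genes of cell division were higher on heme over all pools. Of 14 proliferation genes tested, 14 were higher with a median of 0.32 log2, beside -0.002 for all genes. In limma's adjusted test 0 passed, while 9 had an unadjusted p under 0.05, beside 8.39% of all genes higher at that level. On day 4, 8 of the 14 were higher and 6 lower, with a median of 0.065 log2. On day 7 Top2a, the topoisomerase of dividing cells, rose by 0.65 log2. It was the only gene of the list called on that day, and lay just under the threshold of 0.05. On day 14, 7 of the 14 rose and 0 fell: Mki67 (0.52), Top2a (0.47), Ccna2 (0.85, limma adjusted p = 0.0127), Cdk1 (0.43), Aurkb (0.56), Cdc20 (0.50) and Pcna (0.26). Of all genes tested 11.3% were called higher on day 14, and 8.34% of those at or above the median gene mean, where all 14 lie. The mean of the list was 8.02, 7.93, 8.31 and 8.32 log2 in heme pools and 7.92, 7.83, 7.75, 7.80 and 8.05 log2 in control pools. The heme pools of days 7 and 14 thus lay above all control pools.

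**Figure D4:**
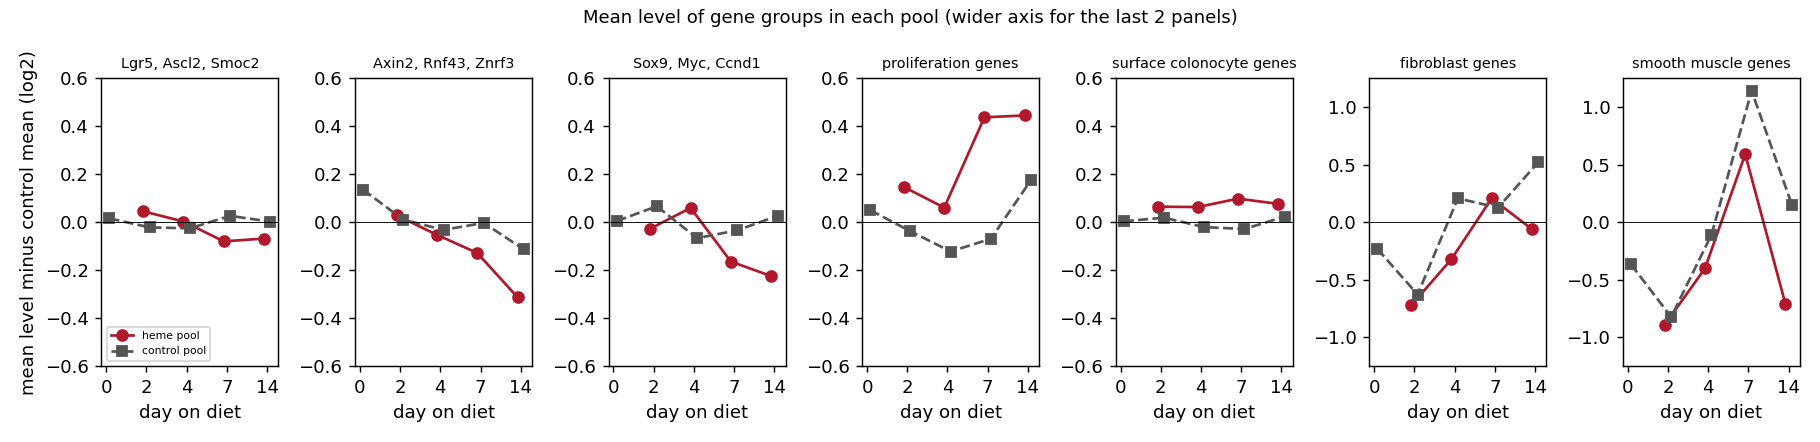
Mean level of gene groups in each pool minus the control mean (log2) against day on diet, with heme pools in red and control pools in grey, and a wider axis for the fibroblast and smooth muscle panels. Proliferation genes on heme stand highest on days 7 and 14, with levels before subtraction of 8.31 and 8.32 log2 and a control mean of 7.87. The mean of Axin2, Rnf43 and Znrf3 on heme is lowest on day 14, at 7.02 log2 before subtraction of a control mean of 7.33.

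Of 108 other genes of the Wnt pathway, its targets and the crypt base, 0 passed over all pools, 2 fell on day 7, and 16 rose and 17 fell on day 14. The shares on day 14 were 14.8% higher and 15.7% lower, near the 11.3% and 15.8% of all genes, so as a whole these genes were called about as often as others. The 2 on day 7 were Wls, the carrier that brings Wnt proteins to the cell surface (-0.27 log2, limma adjusted p = 0.0331), and the Wnt receptor Fzd8 (-0.38 log2, limma adjusted p = 0.0383). The list of ligands holds Wnt and R-spondin genes with Wls and Porcn, which process and carry Wnt proteins. On day 14, 10 of its 21 genes tested rose, with a list median of 0.25 log2: Wnt3a, Wnt5b, Wnt6, Wnt7b, Wnt8a, Wnt9a, Wnt9b, Wnt10a, Wnt10b and Wnt11. They ranged from 0.24 (Wnt5b) to 0.59 log2 (Wnt10a, limma adjusted p = 0.00705). All 10 lie below the median gene mean, the range in which 17.2% of all genes were called higher, as do 17 of the 21 genes of the list. Wls fell by 0.37 log2 (limma adjusted p = 0.00413).

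On day 14, 18.8% of the receptors and 18.2% of the signal transduction genes were called lower, close to the 15.8% of all genes. Below the median gene mean lie 4 of the 16 receptors and 3 of the 22 transduction genes, with 0 of them called lower. Of all genes, 3.47% were called lower and 17.2% higher below that median, and 22.0% were called lower at or above it. Of 16 receptors, the Wnt co-receptor Lrp6 (-0.30), the R-spondin receptor Lgr4 (-0.28, limma adjusted p = 0.0177) and the Wnt receptor Ryk (-0.30) fell, and Lgr6, a relative of Lgr5, rose by 0.39 log2. Of 22 genes of signal transduction, Gsk3b (-0.19) and Btrc (-0.29), which mark beta-catenin for degradation, Bcl9 (-0.57), a beta-catenin coactivator, and the corepressor Tle3 (-0.32) fell, and the coactivator Pygo1 rose by 0.44 log2. Lgr6 and Pygo1, the only genes of these lists called higher, both lie below the median gene mean. Of 12 secreted or feedback inhibitors, 3 rose (25%) and 0 fell, beside 11.3% of all genes called higher and 17.2% of those below the median gene mean. The 3 were the Lrp antagonists Dkk1 (0.33) and Dkk4 (0.49) and the Wnt deacylase Notum (0.38). All 3 lie below the median gene mean too, as do 10 of the 12 genes of the list.

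Of the other targets 13.6% were called lower on day 14, and of the other crypt base genes 33.3%, beside 15.8% of all genes. Below the median gene mean, where 3.47% of all genes were called lower, lie 8 of the 22 targets and 5 of the 21 crypt base genes. At or above it 22.0% of all genes were called lower, and no difference from these shares was tested. Of 22 further targets, the ephrin receptor Ephb3 (-0.34), Tgif1 (-0.16) and the chloride cotransporter Slc12a2 (-0.43) fell, and Notum rose. Of 21 other crypt base genes, 7 fell and 1 rose: Rgmb (-0.33), Slc12a2, Lrig1 (-0.40), a restraint on growth factor receptors, Hopx (-0.33), Prss23 (-0.52), Mecom (-0.26) and the G1 kinase Cdk6 (-0.71, limma adjusted p = 0.00259) fell, and the water channel Aqp4 rose by 0.62 log2. Of 6 genes of the deep crypt secretory cells that border the stem cells, which are not among the 108, Kit (-0.73, limma adjusted p = 0.00487) and the mucin Muc2 (-0.23) fell. Of the same list Spdef (-0.39) and Reg4 (-0.26) were lower, Agr2 (0.02) and Spink4 (0.28) were higher, and none of these was called. All the calls of that day rest on the single heme pool of day 14. Its smooth muscle markers averaged 7.07 log2, against 7.93 log2 in the control pool of that day. Their part in the calls was not tested.

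The genes whose log2 values followed 3 of the crypt genes most closely over the 9 pools were, for Lgr5, Myo10 (Pearson r = 0.984), Rap1gap2 (0.980) and Mical2 (0.976). For Ascl2 they were A230056P14Rik (0.913), Scnn1g (0.909) and Enox2 (0.902), and for Axin2 they were Rnf19a (0.933), Ihh (0.928) and Ttr (0.926). These are the highest of 14953 coefficients over pools that share diet, day and array, and are given as a description.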

How the data were processed

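RNA from pooled colon scrapings was measured on 9 Affymetrix arrays, 4 of heme pools and 5 of control pools. The authors deposited log2 expression values per probeset, made with RMA per the submitters' processing notes; its version and the annotation build are not given in the sources used here. Its quantile step gives arrays a common distribution (array medians 5.895 to 5.963), so differences are relative to the other genes of an array. Of 35556 probesets, 21789 had 1 gene symbol, 1621 several and 12146 none here. The highest-mean probeset stood for a gene, and genes with a mean under 4.716 log2, which removed the dimmest 25%, were left out. limma 3.58.1 in R 4.3.3 (lmFit, eBayes with trend) was fitted over all 14953 genes tested, with Benjamini-Hochberg adjustment and a threshold of 0.05, after being tested on simulated data. Summaries used Python 3.11.15 and pandas 2.3.3. Alternatives were other filters, mean of probesets, no trend, pools left out, and day as a block. Named were the listed genes, every pathway gene that passed, and the 3 genes most correlated with Lgr5, Ascl2 and Axin2. The genes, lists and tests were chosen with earlier results of these data known. Day is shared between diets by the labels. Deviations of same-day pools correlated at 0.651, -0.00493, 0.333 and 0.168 on days 2, 4, 7 and 14. Those of heme and control pools of different days correlated at -0.454 to 0.422. Precision is limited by having so few arrays.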

Additional observations from a re-analysis of the deposited data

Results flagged for a closer look

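Znrf3 in the heme pool of day 14, at 6.40 log2, lay far below the other 3 heme pools, which measured 6.67, 6.70 and 6.69 log2, by Dixon's test at the 95% level. Of 18 groups of pools examined, 1 stood out in this way, and chance alone gives such a value in about 5% of groups.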

How the results depend on the processing

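Rnf43 and Sox9 stayed called on day 14 under every filter, probeset, trend setting and left-out control pool tried, and Myc joined them with the stricter filter (limma adjusted p = 0.0454) and without the control pool of day 2 (0.0472). With day as a replicate block, 0 of the 9 genes were called over all pools and 77 genes in all, with -0.20 log2 for Sox9 (limma adjusted p = 0.198) and -0.09 for Axin2 (0.391); the block changed no call of the 9 genes. The 100 genes called over all pools became 0 in limma's adjusted test without both pools of day 7 (1567 at an unadjusted p under 0.05) and 0 without both pools of day 14 (1507), settings chosen after seeing the data, and 30 to 251 with 1 pool left out. On day 7 the 245 genes called became 95 with no filter, 393 with the stricter filter, 115 with no trend and 8 to 67 with 1 control pool left out. On day 4 the stricter filter and the mean of probesets each called 1 gene. With 1 pool left out, day 2 called 0 to 16 genes, day 14 2903 to 3617, the slope difference 0 to 2, and 2 to 3 of the 9 genes were called on day 14. The stricter filter on day 14 called 892 higher and 2306 lower. Directions turned over all pools without both pools of day 7 for Ascl2 (0.015), Myc (0.021) and Ccnd1 (-0.018), and without both of day 14 for Ascl2 (0.0036). Against the same-day control pool alone they turned for Znrf3 on day 2 (0.037), Rnf43 on day 4 (0.022), Znrf3 (-0.00081) and Ccnd1 (0.17) on day 7, and Ccnd1 on day 14 (-0.20). With 1 pool left out, some values near 0 changed sign. Over all pools the range was -0.066 to 0.019 for Ascl2, -0.027 to 0.077 for Ccnd1, -0.13 to 0.015 for Myc, -0.0896 to 0.011 for Znrf3. On day 2 the range was -0.037 to 0.025 for Znrf3, -0.034 to 0.011 for Smoc2, -0.10 to 0.00062 for Ccnd1. On day 4 the range was -0.012 to 0.034 for Smoc2, -0.055 to 0.012 for Rnf43, -0.000801 to 0.061 for Znrf3. On day 7 the range was -0.019 to 0.043 for Znrf3, -0.053 to 0.0504 for Ccnd1. On day 14 the range was -0.0012 to 0.10 for Ccnd1. For late minus early the range was -0.066 to 0.053 for Smoc2, -0.075 to 0.023 for Axin2, -0.26 to 0.15 for Ccnd1, -0.24 to 0.043 for Znrf3. For the control slope the range was -0.019 to 0.028 for Ascl2, -0.067 to 0.015 for Myc, -0.045 to 0.083 for Ccnd1. For the slope difference the range was -0.051 to 0.066 for Smoc2, -0.045 to 0.034 for Axin2, -0.17 to 0.16 for Ccnd1, -0.16 to 0.047 for Znrf3, -0.18 to 0.0019 for Sox9. The causes were not tested, and with 1 pool a day the day 14 calls assume that the heme pool varies as the control pools do.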
